A study of Mus musculus with 6 samples.

Results

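The transcripts of p53, its targets and the core apoptosis machinery were examined in the cortex of E13.5 mouse embryos that lack Ybx1 in neural cells. A list of 36 genes was taken by symbol from the 17348 genes of the deposited table. It holds Trp53 and its regulator Mdm4, 18 transcriptional targets of p53, and 16 core apoptosis genes (the BCL2 family, the apoptosome, caspases and their inhibitors). The study had asked by staining of sections whether cells die in this cortex, and RNA was sequenced from cortex dissected for that purpose at E13.5. All 36 genes were in the table.

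There were 3 libraries labelled WT and 3 labelled cKO, all from E13.5. The cKO embryos carried Nestin-Cre and homozygous floxed Ybx1 alleles, from which Cre removes exons 3 to 8. The controls are labelled WT and were littermates. The study elsewhere defines its controls as Ybx1 fl/fl embryos without Cre, so these may carry the floxed alleles too, and the Cre transgene then differs between the groups along with the deletion. The floxed allele was made by injecting Cas9, guide RNAs and a donor into C57BL/6J eggs, and the founders were bred to C57BL/6J mice. Nestin-Cre acts in neural progenitors and the cells they give rise to, so vessels, meninges and blood in the dissected tissue keep Ybx1. The number of embryos in a library and their sex are not given in the sources used here.

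p53 is a transcription factor that is held low by Mdm2, which marks it for degradation, and by Mdm4, which blocks its activity. Because p53 is regulated mainly through the stability of the protein, its activity is usually read from the transcripts of its targets, such as Cdkn1a, Mdm2 and Ccng1, rather than from Trp53 itself. In the mitochondrial pathway of apoptosis, BH3-only proteins such as Bbc3 (PUMA) and Bcl2l11 (BIM) release Bax and Bak1 from restraint by Bcl2, Bcl2l1 and Mcl1. Cytochrome c then leaves the mitochondria and joins Apaf1 and Casp9 in the apoptosome. In the embryonic cortex this pathway removes progenitors and newborn neurons, and the loss of Mdm2 or Mdm4 in the nervous system is known to kill progenitors through p53.

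The p53 half-site, a 10-base consensus to which p53 binds in pairs, was searched in the RefSeq promoter windows of the genes (GRCm38.p6, from 250 bases before to 50 bases after each listed start site). The consensus reads the same on both strands, so 1 search covers both, and only exact matches were counted. Windows were found for 13 of the 18 p53 targets, and 8 of these 13 (61.5%) held a half-site. A half-site was present in 0 of the 16 core apoptosis genes and in 2582 of all 27025 genes with a window (9.55%). Cdkn1a was the 1 member with a pair of half-sites up to 13 bases apart, which 20 of the 27025 genes (0.074%) held. The stretches around the half-sites of 4 targets described below are shown 5′ to 3′ on the strand of the gene, with the half-sites in capitals.
Cdkn1a, chr17:29090891-29090952, plus strand: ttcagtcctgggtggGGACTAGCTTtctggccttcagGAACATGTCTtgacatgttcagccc
Mdm2, chr10:117710920-117710959, minus strand: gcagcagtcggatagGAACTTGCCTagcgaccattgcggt
Bax, chr7:45467075-45467114, minus strand: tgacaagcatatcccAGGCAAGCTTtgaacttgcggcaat
Ccng1, chr11:40755447-40755486, minus strand: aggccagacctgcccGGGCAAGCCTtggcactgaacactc
The Cdkn1a pair starts 73 bases before the upstream start site of that gene, and the half-sites of Mdm2, Bax and Ccng1 start 186, 201 and 185 bases before theirs. Half-sites with a mismatch are not marked. The 10 bases directly after the downstream Cdkn1a half-site differ from the consensus at a single base and stay in lower case. These matches are a description of the sequence, and elements outside the windows, such as those in introns, were not searched.

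The libraries held 15907486 to 16282921 estimated counts and detected 15677 to 16296 genes. Ybx1 gave 1021, 527 and 1219 CPM (the TMM-normalised count) in WT replicates 1, 2 and 3, and 83.0, 117 and 147 CPM in the cKO replicates. The level in the library labelled WT replicate 2 was thus intermediate. The cKO mean was 12.5% of the WT mean, a log2 fold change of -3.00 (SE 0.33), with an adjusted p of 0.128 in edgeR's quasi-likelihood test and of 0.0206 without WT replicate 2. In DESeq2 the adjusted p was 5.46e-10. Markers of radial glia, intermediate progenitors and cortical neurons were present in all 6 libraries. In cKO replicate 3, the 9 epidermis markers summed to 254 CPM against 2.13 to 3.16 in the other 5 libraries, and 8 of the 9 were over 2-fold above the highest other library. Its 7 mesenchyme and meninges markers summed to 546 CPM against 8.98 to 17.7, with 6 of the 7 over 2-fold above. Krt5 and Krt14, which define basal epidermis, were at 0 counts in 4 of the other libraries and at 1 count in WT replicate 3. Interneuron markers summed to 68.5 to 121 CPM in WT and 142 to 150 CPM in cKO.

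The 36 transcripts spanned a wide range of levels, as the plot of TPM by library shows. By TPM, the transcript share corrected for length, 12 genes had a WT mean over 50, 13 lay between 10 and 50, and 11 were under 10. Trp53 and Bax were the most abundant, at 196 ± 22.0 and 180 ± 7.62 TPM (SD, n = 3), and these did not separate beyond their spread. Mcl1 followed at 106 ± 6.96, and then Ddit4 at 87.7 ± 20.6, Bcl2l1 at 81.6 ± 6.32, Cycs at 81.3 ± 8.29, Mdm2 at 78.6 ± 4.42 and Mdm4 at 73.8 ± 7.97 TPM, a run of neighbours whose spreads overlap. Among the genes that induce apoptosis downstream of p53, Bbc3 was at 6.15 ± 2.06 TPM and Pmaip1 (NOXA) at 0.477 ± 0.151 TPM. The death receptor gene Fas was at the limit of detection.

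**Figure D1:**
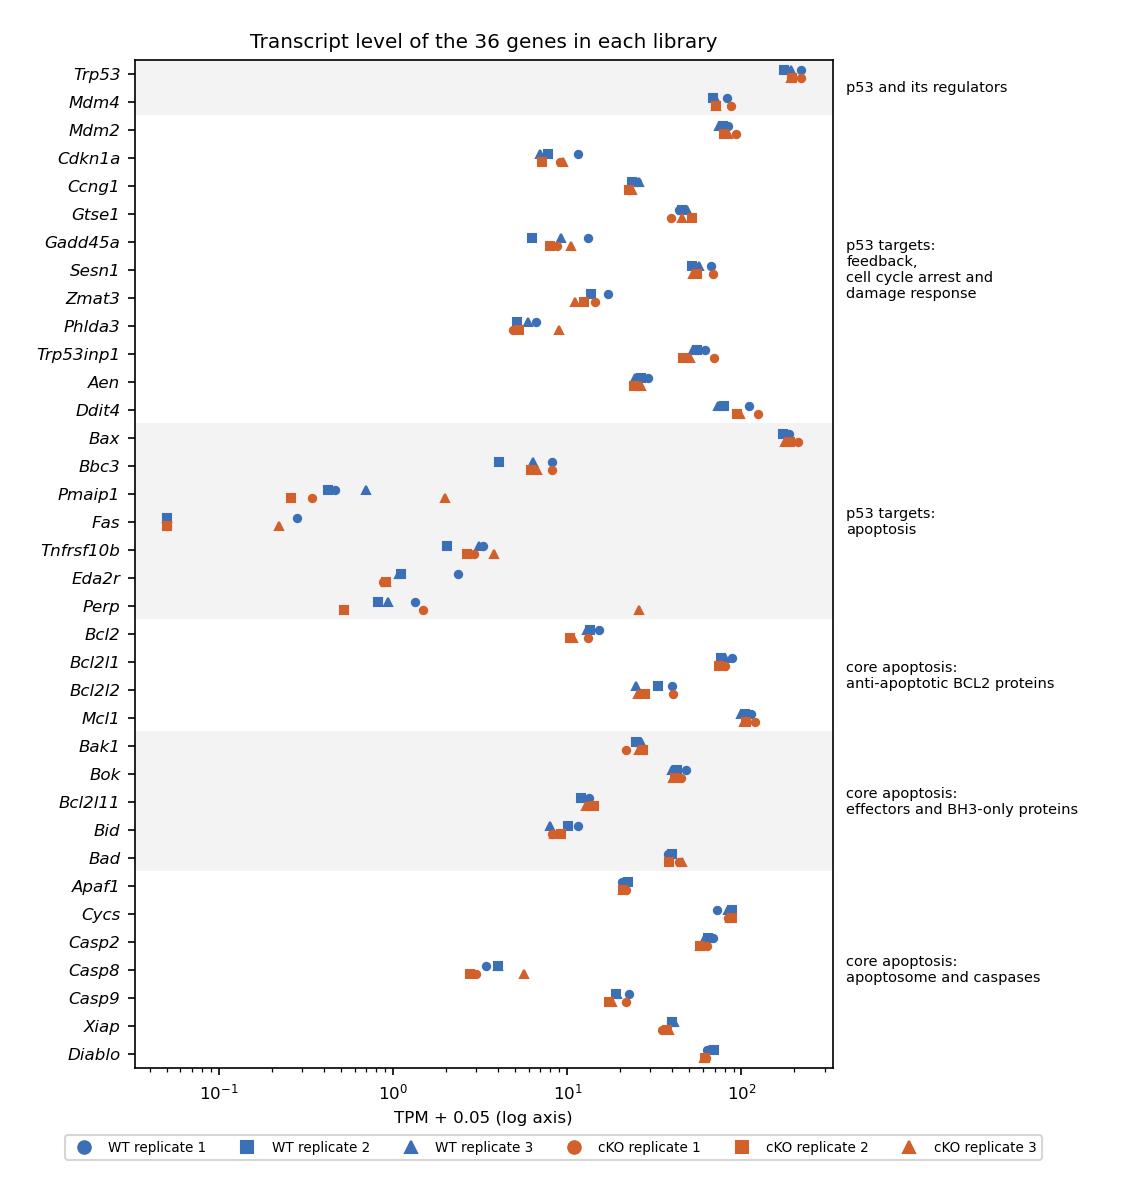
Level of each of the 36 genes in TPM + 0.05 on a log axis, with WT libraries in blue and cKO libraries in orange and replicates 1, 2 and 3 as circles, squares and triangles. Levels run from Trp53 and Bax near the top, at WT means of 196 and 180 TPM, down to Fas, and cKO replicate 3 stands apart for Perp and Pmaip1.

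Whether these transcripts differ between the genotypes was tested for the 34 members that passed the filter on low counts, within a fit of all 13340 genes. At an adjusted p under 0.05, edgeR called 0 of the 34 (0% of all genes tested were called), and every member had an adjusted p of 0.99998. At an unadjusted p under 0.05, 1 member was higher in cKO (Perp) against 1.75% of all genes, and 2 members were lower (Eda2r and Bcl2) against 1.81%. DESeq2 and limma-voom also called 0 after adjustment, and at an unadjusted p under 0.05 they gave 1 member (Bcl2, 2.94%) against 2.55% of all genes and 2 members (Zmat3 and Bcl2, 5.88%) against 3.34% of all genes.

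The fitted changes were small. For 32 of the 34 members the log2 fold change was within 0.3 of 0, as it was for 12120 of the 13340 genes, and the median size of change was 0.086 against 0.078 over all genes. For 24 members the whole 95% interval lay within 0.5 of 0 on the log2 scale, and for 32 it lay within 1. The median log2 fold change was -0.02 over the members, -0.01 over the 16 p53 targets tested and -0.04 over the 16 core apoptosis genes, against 0.00 over all genes. These medians carry no test. The p53 targets divided into 7 positive and 9 negative values. Of the core apoptosis genes, 4 were positive and 12 negative. Over all genes tested, 6774 were positive and 6566 negative. The median of the p53 targets was 0.11 without WT replicate 1 and -0.11 when WT replicate 2 and cKO replicate 3 were both left out. With all libraries kept, it was 0.003 with upper-quartile factors and 0.003 with limma on log2(TPM + 1). Its sign thus depended on the libraries kept and on the scaling.

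**Figure D2:**
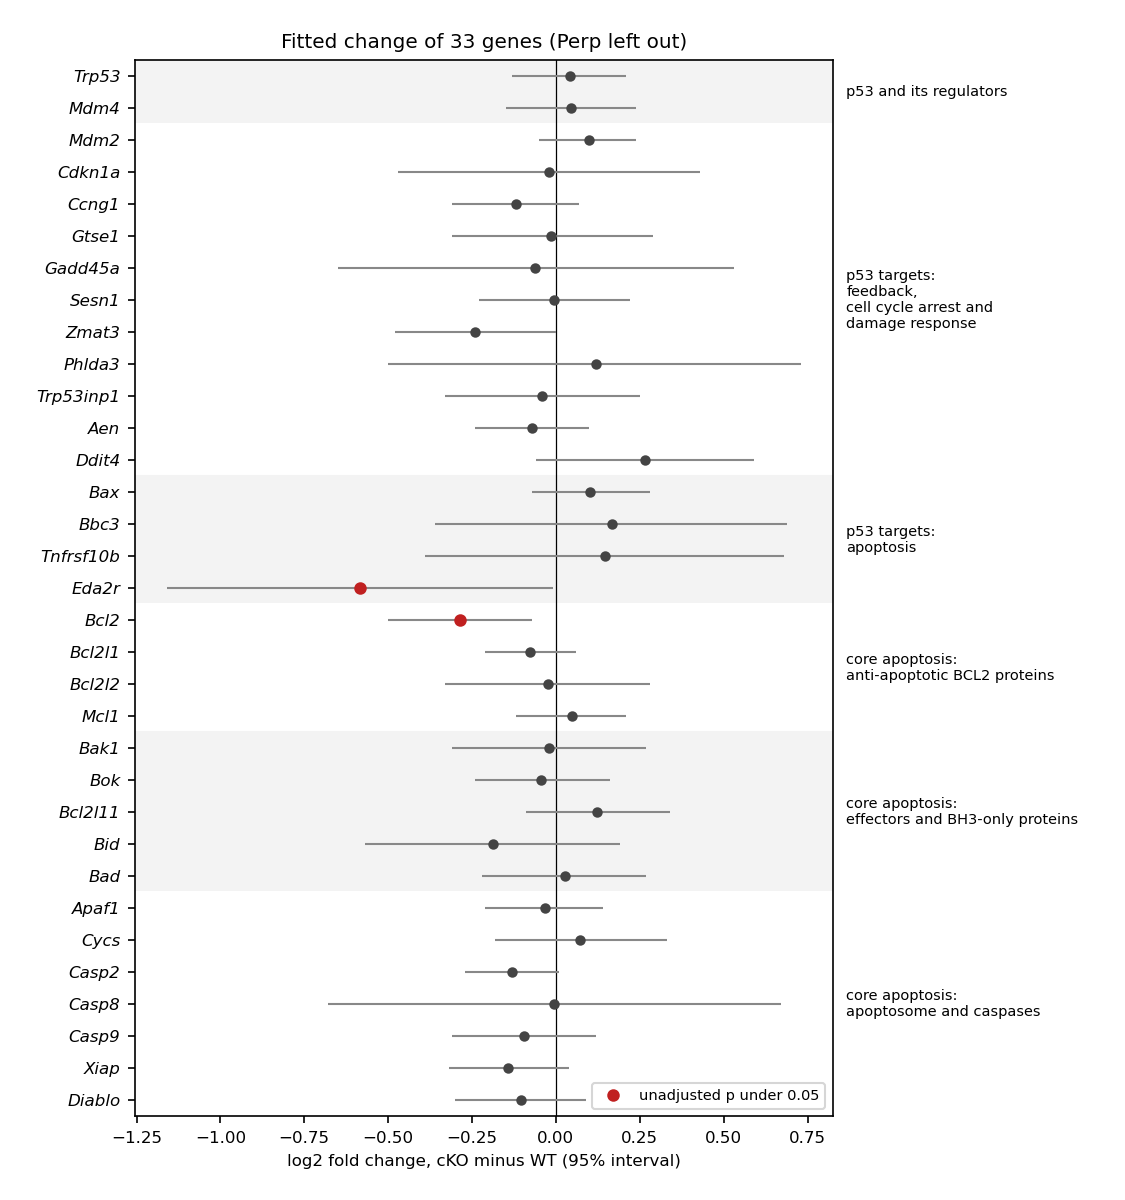
Fitted log2 fold change of cKO over WT with its 95% interval for the 33 tested genes other than Perp, whose value of 3.23 (interval 0.21 to 6.25) lies off this scale. Red points mark Eda2r and Bcl2, the genes with an unadjusted p under 0.05, and the other intervals include 0.

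Counting the members whose 3 cKO libraries all lay on one side of the 3 WT libraries gave 2 higher (Mdm2 and Bcl2l11, 5.88% of the 34), against 4.21% of all genes tested. Another 6 were lower (Ccng1, Zmat3, Eda2r, Bcl2, Bcl2l1 and Casp2, 17.6%), against 4.83% of all genes. In TPM the counts were 0 higher and 3 lower (Eda2r, Xiap and Diablo), where 4.62% and 3.95% of all genes separate. With upper-quartile factors they were 3 higher and 4 lower, where 5.1% and 3.96% of all genes separate, so the count depends on the scaling and on differences of a few percent. Without cKO replicate 3 and WT replicate 2 there were 4 higher and 10 lower, where 14% and 13% of all genes separate.

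Trp53 (chr11:69580348-69591873) gave 150, 131 and 143 CPM in WT and 152, 146 and 139 CPM in cKO. The groups overlapped throughout, with a log2 fold change of 0.04 (SE 0.07, 95% interval -0.13 to 0.21, unadjusted p = 0.593 in edgeR). Mdm4, which restrains p53 without degrading it, gave 259, 234 and 236 CPM in WT and 274, 245 and 233 in cKO, a log2 fold change of 0.04 (SE 0.09, unadjusted p = 0.616 in edgeR). For both genes replicate 1 was the highest library in each genotype. Trp53 has a processed pseudogene in the mouse, and reads shared with it cannot be told apart here.

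Among the targets that feed back on p53 or stop the cell cycle, Mdm2 (chr10:117688875-117710758), the ubiquitin ligase of p53, gave 110, 112 and 106 CPM in WT and 123, 113 and 115 in cKO. Every cKO library lay above every WT library, the closest pair being 112 and 113 CPM, and the log2 fold change was 0.10 (SE 0.06, 95% interval -0.05 to 0.24, unadjusted p = 0.161 in edgeR). Cdkn1a (p21, chr17:29090979-29100722), the cyclin-dependent kinase inhibitor through which p53 arrests cells in G1 and the target with the paired half-sites shown above, gave 8.41, 6.25 and 5.43 CPM in WT and 6.80, 5.70 and 7.29 in cKO. Its groups overlapped fully, with a log2 fold change of -0.02 (SE 0.20, 95% interval -0.47 to 0.43, unadjusted p = 0.915 in edgeR). At 87 to 134 counts per library, the interval of Cdkn1a is wider than that of Mdm2.

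Ccng1 (cyclin G1) is among the most regularly induced targets of p53. It gave 36.1, 36.9 and 40.1 CPM in WT and 32.9, 35.7 and 35.6 in cKO, so all 3 cKO libraries lay just below the WT range, with a log2 fold change of -0.12 (SE 0.08, unadjusted p = 0.192 in edgeR). Zmat3, an RNA-binding zinc finger protein induced by p53, gave 57.6, 50.7 and 49.9 CPM in WT and 49.1, 45.9 and 39.1 in cKO. The cKO libraries were again all lower, and the log2 fold change was -0.24 (SE 0.11, 95% interval -0.48 to 0.00, unadjusted p = 0.052 in edgeR). It was -0.15 (unadjusted p = 0.166) without cKO replicate 3, which held the lowest value, and -0.31 (unadjusted p = 0.0161) without cKO replicate 1.

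Ddit4 (REDD1), an inhibitor of mTORC1 that also responds to hypoxia and glucocorticoids, gave 70.7, 54.8 and 49.5 CPM in WT and 79.9, 65.2 and 65.3 in cKO. WT replicate 1 lay above both cKO replicates 2 and 3, and the log2 fold change was 0.27 (SE 0.14, 95% interval -0.06 to 0.59, unadjusted p = 0.0991 in edgeR). It was 0.43 (unadjusted p = 0.0063) without WT replicate 1 and 0.16 (unadjusted p = 0.315) without WT replicate 3. Each cKO library lay above the WT library of the same number. With the replicate number as a block, the log2 fold change of Ddit4 was 0.27 (SE 0.06, unadjusted p = 0.00298 and adjusted p = 0.481 in edgeR). In that fit 8.17% of all genes tested had an unadjusted p under 0.05. The other damage-response targets showed no separation. Gtse1, a G2 and S phase protein that moves p53 out of the nucleus, ranged over 44.0 to 61.9 CPM (log2 fold change -0.02, unadjusted p = 0.912). Sesn1, a sestrin that acts against oxidative stress and mTORC1, ranged over 60.8 to 76.4 CPM (-0.01, unadjusted p = 0.961), and Trp53inp1, a stress-induced nuclear protein, over 117 to 163 CPM (-0.04, unadjusted p = 0.759). Aen, an apoptosis-enhancing nuclease, lay between 53.9 and 60.3 CPM (-0.07, unadjusted p = 0.362). The low-count genes Gadd45a, a stress sensor in growth arrest and repair, at 2.91 to 5.59 CPM (-0.06, unadjusted p = 0.816), and Phlda3, an inhibitor of Akt, at 2.62 to 5.0 CPM (0.12, unadjusted p = 0.669), had intervals of -0.65 to 0.53 and -0.50 to 0.73. The highest Phlda3 value was in cKO replicate 3, and its log2 fold change was -0.21 without that library.

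**Figure D3:**
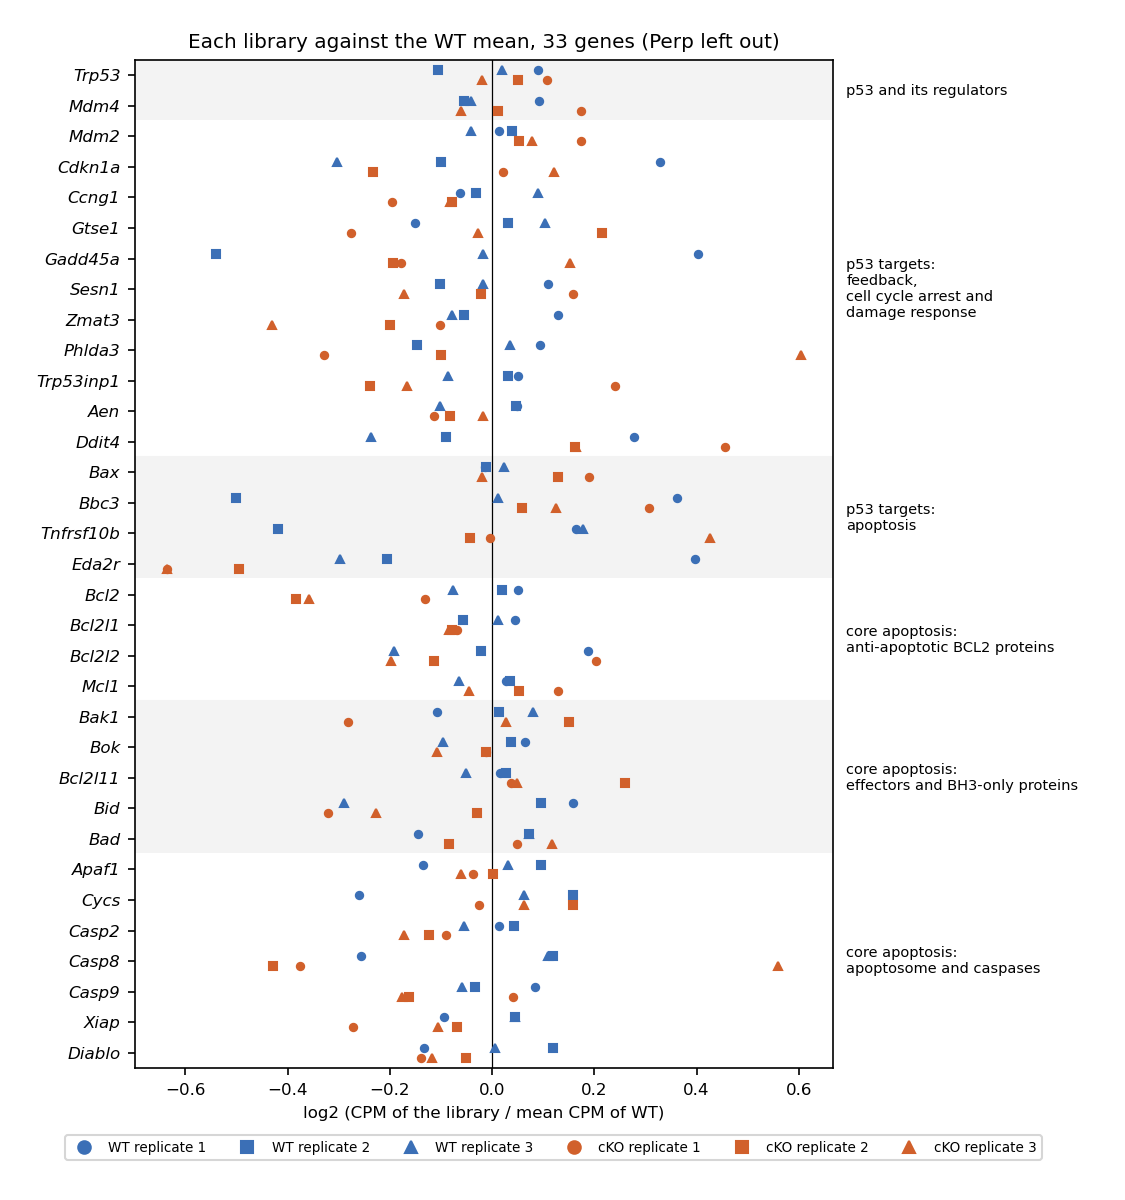
CPM of each library relative to the WT mean on a log2 scale for the 33 tested genes other than Perp, grouped by role, with WT in blue and cKO in orange. For 26 of the 34 tested genes, Perp included, the colours overlap, and the separated rows are Mdm2 and Bcl2l11 to the right and Ccng1, Zmat3, Eda2r, Bcl2, Bcl2l1 and Casp2 to the left.

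The targets through which p53 triggers apoptosis had 1 separated member of 5 tested (Eda2r, lower), where 4.83% of all genes tested separate downward. Bax (chr7:45461695-45466903), the pore-forming effector, gave 50.1, 50.2 and 51.4 CPM in WT and 57.7, 55.3 and 49.9 in cKO, so cKO replicate 3 lay below all WT libraries and the other 2 above them. Its log2 fold change was 0.10 (SE 0.08, 95% interval -0.07 to 0.28, unadjusted p = 0.219 in edgeR). Bbc3, the BH3-only protein PUMA, gave 5.96, 3.28 and 4.68 CPM in WT and 5.74, 4.83 and 5.06 in cKO, a log2 fold change of 0.17 (SE 0.23, 95% interval -0.36 to 0.69, unadjusted p = 0.488 in edgeR). The spread of Bbc3 among the WT libraries covered all 3 cKO values. Tnfrsf10b, the mouse receptor for TRAIL, ranged over 2.85 to 5.12 CPM (log2 fold change 0.15, unadjusted p = 0.547).

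Eda2r (chrX:97333837-97377234), the receptor of ectodysplasin A2 and a p53 target of the TNF receptor family, gave 3.95, 2.60 and 2.44 CPM in WT and 1.93, 2.13 and 1.93 in cKO. The groups did not overlap, and the log2 fold change was -0.58 (SE 0.25, 95% interval -1.16 to -0.01, unadjusted p = 0.0472 and adjusted p = 0.99998 in edgeR). This is 31 to 63 counts per library, and without WT replicate 1, the highest, the log2 fold change was -0.33 (unadjusted p = 0.202). The unadjusted p was also above 0.05 without WT replicate 2 (0.0539, log2 fold change -0.68), without cKO replicate 1 (0.099, -0.55), without cKO replicate 2 (0.0739, -0.63) and without cKO replicate 3 (0.0813, -0.56). It stayed under 0.05 without WT replicate 3 (0.0391 in edgeR, log2 fold change -0.71).

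Perp (chr10:18845071-18857073), a p53 target that is also a component of desmosomes in stratified epithelia, gave 0.941, 0.619 and 0.687 CPM in WT and 1.06, 0.376 and 19.7 in cKO. A single library, cKO replicate 3, held 327 of the counts, and the other 5 held 6 to 17 each. The log2 fold change was 3.23 (SE 1.31, unadjusted p = 0.0391 and adjusted p = 0.99998 in edgeR) with that library and -0.06 (SE 0.49, unadjusted p = 0.908) without it. Perp had 10 to 15 counts in the WT libraries, 17 in cKO replicate 1 and 6 in cKO replicate 2. It was thus near the limit of the filter on low counts, and the WT libraries alone did not carry it past. Sfn (14-3-3 sigma), a p53 target of the wider list that is also abundant in epidermis, was likewise high in the same library, at 0.689 to 1.25 CPM in 5 libraries and 22.1 CPM in cKO replicate 3 (log2 fold change 3.03 with it and -0.01 without it). Trp63, the p53 relative that specifies the epidermis, was at 0.0623 to 0.188 CPM in 5 libraries and at 15.5 CPM in cKO replicate 3, where Krt5 was at 130 and Krt14 at 49.6 CPM. Of the 9 epidermis markers, which summed to 254 CPM in this library, 8 were over 2-fold above the highest other library. Of the 7 mesenchyme and meninges markers, which summed to 546 CPM there, 6 were. The Perp difference was not present without this library. Whether it comes with either tissue was not tested, and a single library cannot tell these tissues apart.

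Pmaip1 and Fas failed the filter and were not tested. Pmaip1, the BH3-only protein NOXA, had 7, 7 and 12 counts in WT and 5, 4 and 36 in cKO, or 0.439, 0.433 and 0.749 CPM against 0.312, 0.251 and 2.17. Its 1 high library was again cKO replicate 3. Fas had 2, 0 and 0 counts in WT and 0, 0 and 2 in cKO, where 0 counts allow up to 3 counts, or 0.181 to 0.188 CPM, and a difference was not detectable at this depth.

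**Figure D4:**
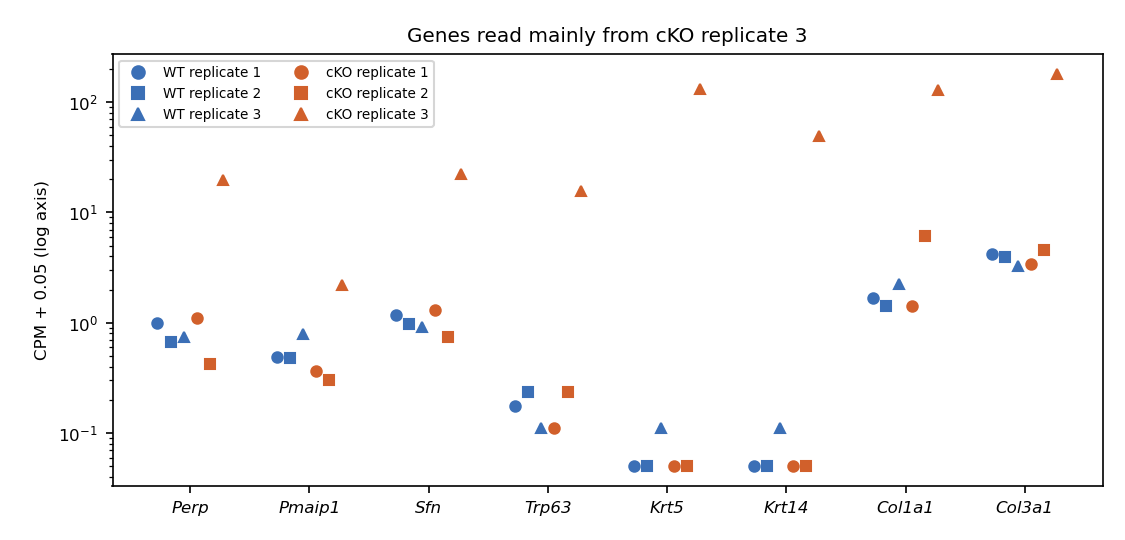
CPM + 0.05 on a log axis of Perp and Pmaip1, of the p53 target Sfn and the p53 relative Trp63, and of the epidermis markers Krt5 and Krt14 and mesenchyme markers Col1a1 and Col3a1 in each library. The orange triangle, cKO replicate 3, is the highest library for every gene, at 19.7 CPM for Perp against at most 1.06 in the other 5.

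Of the p53 targets tested that have a promoter window, the 8 with a half-site (Mdm2, Cdkn1a, Ccng1, Gtse1, Gadd45a, Sesn1, Aen and Bax) had log2 fold changes from -0.12 to 0.10, with a median of -0.02. The 4 without one (Phlda3, Ddit4, Bbc3 and Eda2r) had values from -0.58 to 0.27, with a median of 0.14. The genes with half-sites covered the narrower range, and no test was made of the difference. Among those without one, Eda2r, Phlda3 and Bbc3 had low counts, with SEs of 0.25, 0.27 and 0.23. Of the 8 with half-sites, Gadd45a and Cdkn1a had SEs of 0.26 and 0.20. The others of the 8 lay between 0.06 (Mdm2) and 0.13 (Gtse1), so the ranges are not of equal precision.

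Among the proteins that hold apoptosis in check, Bcl2 (chr1:106538176-106714290), the founding anti-apoptotic member of its family, gave 46.6, 45.6 and 42.7 CPM in WT and 41.1, 34.5 and 35.1 in cKO. The groups did not overlap, and the cKO mean was 82.1% of the WT mean, with a log2 fold change of -0.29 (SE 0.09, 95% interval -0.50 to -0.07, unadjusted p = 0.0157 and adjusted p = 0.99998 in edgeR). The direction held in all 15 alternative fits, at -0.36 to -0.24, and the unadjusted p was under 0.05 in 12 of them. It was 0.0559 without cKO replicate 2, 0.0567 without cKO replicate 3, and 0.123 without both WT replicate 2 and cKO replicate 3. In TPM the groups overlapped, with 12.9 in WT replicate 3 below 13 in cKO replicate 1.

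Bcl2l1 (BCL-XL), the member on which newborn neurons of the embryo depend, gave 91.8, 85.6 and 89.7 CPM in WT and 84.9, 84.3 and 84.0 in cKO. The cKO libraries were lower by a narrow margin, with a log2 fold change of -0.08 (SE 0.06, 95% interval -0.21 to 0.06, unadjusted p = 0.233 in edgeR). Mcl1, which neural progenitors require, gave 164, 165 and 154 CPM in WT and 176, 167 and 156 in cKO, overlapping, with a log2 fold change of 0.05 (SE 0.07, unadjusted p = 0.525 in edgeR). Bcl2l2 (BCL-W) ranged over 42.8 to 56.5 CPM (-0.02, unadjusted p = 0.86). By TPM the most abundant of these in WT was Mcl1, followed by Bcl2l1, and Bcl2 was the lowest at 13.9 ± 1.17 TPM (SD, n = 3).

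Of the effectors and BH3-only proteins, 1 of 5 separated, upward in cKO, where 4.21% of all genes tested separate upward. Bcl2l11 (BIM), a BH3-only protein that binds all anti-apoptotic members, gave 26.6, 26.8 and 25.4 CPM in WT and 27.0, 31.5 and 27.2 in cKO, a log2 fold change of 0.12 (SE 0.09, 95% interval -0.09 to 0.34, unadjusted p = 0.226 in edgeR). Only cKO replicate 2 lay clearly above the WT range, and the value was 0.045 without it. Bak1, the effector that can replace Bax, ranged over 17.1 to 23.1 CPM (log2 fold change -0.02, unadjusted p = 0.867), and Bok, a further effector, over 24.5 to 27.6 CPM (-0.04, unadjusted p = 0.631). Bid, which links caspase-8 to mitochondria, lay between 5.99 and 8.35 CPM (-0.19, unadjusted p = 0.287), and Bad, a BH3-only protein controlled by growth factor signals, between 16 and 19.2 CPM (0.03, unadjusted p = 0.807).

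In the apoptosome and caspase group, 6 of 7 log2 fold changes were negative, over a range of -0.14 to 0.07. Of all 13340 genes tested, 6566 were negative. Apaf1, the scaffold of the apoptosome, gave 58.1, 68.2 and 65.2 CPM in WT and 62.2, 63.9 and 61.2 in cKO, with a log2 fold change of -0.03 (SE 0.08, unadjusted p = 0.689 in edgeR). Casp9, the caspase it activates, gave 36.8, 33.9 and 33.3 CPM in WT and 35.7, 31.0 and 30.7 in cKO, with a log2 fold change of -0.10 (SE 0.09, 95% interval -0.31 to 0.12, unadjusted p = 0.336 in edgeR). Both genes overlapped between the groups. Casp2, an initiator caspase activated in the PIDDosome, gave 101, 103 and 96.3 CPM in WT and 93.9, 91.8 and 88.8 in cKO. Its groups did not overlap, and the log2 fold change was -0.13 (SE 0.06, 95% interval -0.27 to 0.01, unadjusted p = 0.0658 in edgeR).

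Xiap, which inhibits caspases, ranged over 106 to 132 CPM with a log2 fold change of -0.14 (unadjusted p = 0.107), and Diablo, which relieves that inhibition, over 47.3 to 56.6 CPM (-0.10, unadjusted p = 0.253). Cycs, the gene of cytochrome c, ranged over 93.5 to 125 CPM (0.07, unadjusted p = 0.54). Casp8, the initiator downstream of death receptors, lay between 3.01 and 5.97 CPM (-0.01, unadjusted p = 0.985), with its highest value in cKO replicate 3 and a log2 fold change of -0.40 without that library. Cycs has processed pseudogenes that can share its reads, and Bcl2l1, Bak1, Bcl2l11, Bad, Apaf1 and Diablo overlap another listed gene. It is not stated whether counting used strand, so these values are uncertain to that extent. In bulk tissue, fewer cells of a type and less RNA per cell cannot be told apart.

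Further genes of the pathway also gave 0 calls after adjustment. Of 25 other p53 targets, 22 were tested, 0 passed an adjusted p of 0.05, and their median log2 fold change was 0.00. At an unadjusted p under 0.05, 1 was higher in cKO (Sfn, given above), against 1.75% of all genes. Ddb2, a damage sensor in nucleotide excision repair, was the 1 that separated, at 6.09, 6.69 and 6.24 CPM in WT and 7.36, 7.02 and 6.93 in cKO (log2 fold change 0.16, SE 0.13, unadjusted p = 0.228). That is 4.55% of the 22, against 4.21% of all genes separated upward. Of 25 other apoptosis genes, 21 were tested and 0 had an adjusted or an unadjusted p under 0.05, with a median of -0.06.

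Endog, a mitochondrial nuclease, separated upward at 1.61 to 1.69 CPM in WT and 1.87 to 2.38 in cKO (log2 fold change 0.41, unadjusted p = 0.0956), and Dffb, the caspase-activated DNase, downward at 8.60 to 10.4 CPM in WT and 7.65 to 8.56 in cKO (-0.25, unadjusted p = 0.0841). Each is 4.76% of the other apoptosis genes tested, against 4.21% of all genes upward and 4.83% downward. Of 13 genes upstream of p53 or in its family, 11 were tested and 0 passed an adjusted p of 0.05. At an unadjusted p under 0.05, 1 was lower in cKO, against 1.81% of all genes. This was Hipk2, a kinase that phosphorylates p53, at 325, 284 and 304 CPM in WT and 267, 270 and 228 in cKO (log2 fold change -0.26, SE 0.09, unadjusted p = 0.0238 and adjusted p = 0.99998 in edgeR). All cKO libraries were below all WT libraries, and the unadjusted p was 0.0861 without cKO replicate 3, 0.0636 without WT replicate 1 and 0.064 without WT replicate 3. Usp7, the deubiquitinase that stabilises Mdm2 and p53, separated upward at 258 to 263 CPM in WT and 267 to 286 in cKO (0.09, unadjusted p = 0.207). Usp7 upward and Hipk2 downward are each 9.09% of the 11 tested, against 4.21% and 4.83% of all genes. Trp73, the p53 relative made by Cajal-Retzius cells, gave 28.2, 21.7 and 22.4 CPM in WT and 23.2, 18.6 and 17.5 in cKO, with a log2 fold change of -0.29 (SE 0.15, unadjusted p = 0.0858 in edgeR), and its groups overlapped.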

How the data were processed

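Total RNA from E13.5 cortex was extracted with Trizol, made into mRNA libraries and sequenced on a DNBSEQ platform, with 3 libraries labelled WT and 3 labelled cKO. The submitters' processing notes name HISAT2 2.2.1, Bowtie2 2.4.5, RSEM 1.3.1 and the build GRCm38 (mm10). Whether counting used strand is not given in the sources used here. The authors deposited 1 table of 17348 genes, whose estimated counts per gene were not normalised (10.9% of values were not whole). TPM, also deposited, corrects each transcript share for length. FPKM and group averages were not used.

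Estimated counts were rounded. filterByExpr (minimum count 10, minimum total 15) kept 13340 genes. Genotype was tested with edgeR 4.0.16 (R 4.3.3; TMM factors, glmQLFit, glmQLFTest, two-sided), with Benjamini-Hochberg adjustment over all 13340 genes and a threshold of 0.05. Standard errors were the fold change over the square root of F, and CPM values were TMM-normalised. Totals were 15907486 to 16282921, and 0 counts allow up to 3 (0.181 to 0.188 CPM, for counting error only). An exact permutation test of 3 against 3 cannot go below 0.1. The fit was tested on simulated counts with independent libraries and changes larger than those of most members. That test therefore does not show whether changes of the members' size would be found. Groups and replicate numbers came from the sample titles. Whether replicates came from separate litters is not stated beyond their being called biological replicates, and the 3 sequencing batches cannot be assigned to libraries.

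The members and lists were chosen with earlier results of these data known. Members were named with all values when they were central to the pathway, had an unadjusted p under 0.05, did not overlap between groups, or had a library over 2-fold from the median of 6, and the rest were given by range. As alternatives, the scaling (RLE, upper quartile), the filter (none, or 10 counts per library) and the tool (DESeq2 1.42.0, voom and limma 3.58.1, limma on log2(TPM + 1)) were changed in turn, a replicate block was added, and libraries were left out. Promoter windows and coordinates are those of RefSeq (GRCm38.p6), matched by gene ID. Coordinates were found for all 36 members and promoter windows for 31 of them. Proteins were not used here. Of the wider apoptosis list, 1 gene enters the totals and is not reported here.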

Additional observations from a re-analysis of the deposited data

How the results depend on the processing

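In 15 alternative fits, 0 of the members had an adjusted p under 0.05, and the lowest adjusted p of any member was 0.481, for Ddit4 in edgeR with the replicate number as a block. The number of members with an unadjusted p under 0.05, 3 in the main fit, was 1 with DESeq2 (which gave Perp no p), 1 with limma on log2(TPM + 1) and 0 with WT replicate 2 and cKO replicate 3 both left out, where 2.55%, 3.32% and 1.84% of all genes tested were under 0.05. When 1 library was left out it ranged from 0 (without cKO replicate 3, against 2.43% of all genes) to 4 (without cKO replicate 1, 11.4% against 7.81% of all genes). With the replicate block it was 5 (Zmat3, Ddit4, Bcl2, Casp2 and Xiap), where 8.17% of all genes tested were under 0.05. Without the block, 3.57% of all genes tested had an unadjusted p under 0.05. Deviations of same-numbered libraries from their group means correlated at 0.453, 0.322 and -0.006 for replicates 1, 2 and 3. The values for replicates 1 and 2 were thus positive. The labels do not say what a replicate number shares, so the main fit held no block. Whether the numbers mark pairs was not tested. The adjusted p of Ybx1 was 0.0381 with the block, against 0.128 without it. The causes of these changes were not tested.

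The median log2 fold change of the p53 targets ranged from -0.041 to 0.108 when 1 library was left out and was -0.11 with WT replicate 2 and cKO replicate 3 both left out. That of the core apoptosis genes ranged from -0.082 to -0.031 and stayed negative in all 15 fits. Members separated upward in cKO numbered 0 in TPM (4.62% of all genes separate), 2 without WT replicate 2 (9.61%), 4 without cKO replicate 3 (7.81%) and 4 without both (14%). Those separated downward numbered 3 in TPM (3.95%), 6 without WT replicate 2 (8.96%), 7 without cKO replicate 3 (7.79%) and 10 without both (13%). These last alternatives were chosen after seeing the data, as were those for genes outside the 36.

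Of the 34 members tested, 16 kept their direction in all fits and 18 did not, none of these being past an adjusted threshold in any fit. When 1 library was left out, the log2 fold change ranged from -0.008 to 0.09 for Trp53, -0.016 to 0.098 for Mdm4, -0.152 to 0.18 for Cdkn1a, -0.148 to 0.107 for Gtse1, -0.271 to 0.195 for Gadd45a, -0.087 to 0.071 for Sesn1, -0.209 to 0.309 for Phlda3, -0.195 to 0.051 for Trp53inp1, -0.032 to 0.39 for Bbc3 and -0.027 to 0.242 for Tnfrsf10b. It ranged from -0.059 to 3.781 for Perp, -0.013 to 3.569 for Sfn, -0.145 to 0.082 for Bcl2l2, -0.118 to 0.098 for Bak1, -0.038 to 0.079 for Bad, -0.091 to 0.018 for Apaf1, -0.038 to 0.157 for Cycs and -0.404 to 0.164 for Casp8. With WT replicate 2 and cKO replicate 3 both left out, the direction changed for Gtse1 (0.008), Sesn1 (0.023), Phlda3 (-0.275), Trp53inp1 (0.035), Bbc3 (-0.011), Tnfrsf10b (-0.193), Perp (-0.178), Bcl2l2 (0.046), Bok (0.005), Apaf1 (0.032) and Sfn (-0.048). It also changed for Sesn1 (0.007) and Casp8 (0.013) with upper-quartile factors and for Sesn1 (0.007) with log2(TPM + 1).

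With 3 libraries a group, the 95% intervals of the low-count members, such as Cdkn1a, Bbc3, Gadd45a, Phlda3 and Casp8, do not exclude changes of the size fitted for Bcl2. Those of some well-counted members do not exclude them either, such as Trp53inp1 (-0.33 to 0.25), Xiap (-0.32 to 0.04) and Bcl2l2 (-0.33 to 0.28).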
